A study of Rattus norvegicus with 29 samples.

Results

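The comparison set blood cells of 15 rats on a cafeteria diet against those of 14 rats on control chow, over all 3 feeding states at once. It takes in all 29 arrays of the series, and the diet of each came from its label. The rats were male Wistar rats at 6 months of age. For the last 4 months, control rats had standard chow, and cafeteria rats had a hypercaloric diet rich in fat beside the same chow. Blood was drawn in 1 of 3 feeding states: with food at will (fed), at the end of a 14 h fast (fasted), or 6 h after food was returned to fasted rats (refed). The control fed group held 4 rats and the other 5 groups held 5 rats each, with 1 rat per array. The cafeteria diet is a model of obesity from palatable, mixed foods. The labels give no body weight per rat, so how obese each animal became is not known here.

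Peripheral blood mononuclear cells are the lymphocytes and monocytes that float on a density gradient while granulocytes and red cells sink. They circulate through fat, liver and gut, and they carry receptors and enzymes for lipid handling that respond to fatty acids and sterols in the blood. Cpt1a, for instance, admits long-chain fatty acids to mitochondria, and its gene is a classic target of the PPAR receptors, which bind fatty acids. Abca1 exports cholesterol from cells and is a target of the LXR receptors, which bind oxidised sterols.

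Each value is the log2 ratio of a rat's own RNA (Cy5) to a pool of the samples (Cy3) on the same array, so 0 means the level of the pool. A difference is the mean over the 3 states of the cafeteria mean minus the control mean, with its standard error after ±. One limma fit covered 24357 genes, each represented by its brightest probe, and genes with an adjusted p below 0.05 count as called. The share of spots with Cy5 well above background was 53.3% to 66.7% in control and 58.1% to 66.24% in cafeteria arrays. Marker genes of T cells (19 of 19) and B cells (11 of 11) were above background on all 29 arrays, as were 19 of 21 monocyte markers. So were 18 of 19 platelet, 15 of 17 erythroid and 10 of 17 neutrophil markers, beside 73.1% of all genes tested. Whether the preparations held RNA of these other blood cells was not tested. In such bulk samples, fewer cells of a type and less RNA per cell cannot be told apart.

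More of the called genes were lower than higher on the cafeteria diet, although 55.4% of all genes tested had a difference above 0. Of 24357 genes, 788 were called (3.24%), of which 193 rose (0.792%) and 595 fell (2.44%) in cafeteria rats. The differences were small. The median rise was 1.15-fold and the largest 1.98-fold, and 7 rises passed 1.5-fold. The median fall was 1.24-fold and the largest 2.93-fold, with 64 falls over 1.5-fold and 9 over 2-fold. The authors' deposited value table, fitted the same way on 17225 genes, gave 403 rises and 464 falls, so the excess of falls was smaller there. With each array centred on its median and no loess 54 genes were called, with the spread of the arrays set equal 235, and within the arrays of image extraction run 1 or run 2 alone 8 and 3. All 788 genes kept their direction within each run, although the 2 runs hold the same arrays that called them. With the run as a block 667 genes were called, 636 of them among the 788, and of the genes named below Defa5, Cd72, Ckap4, Cd37, Nr1h3 and Nfkb1 were not.

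**Figure D1:**
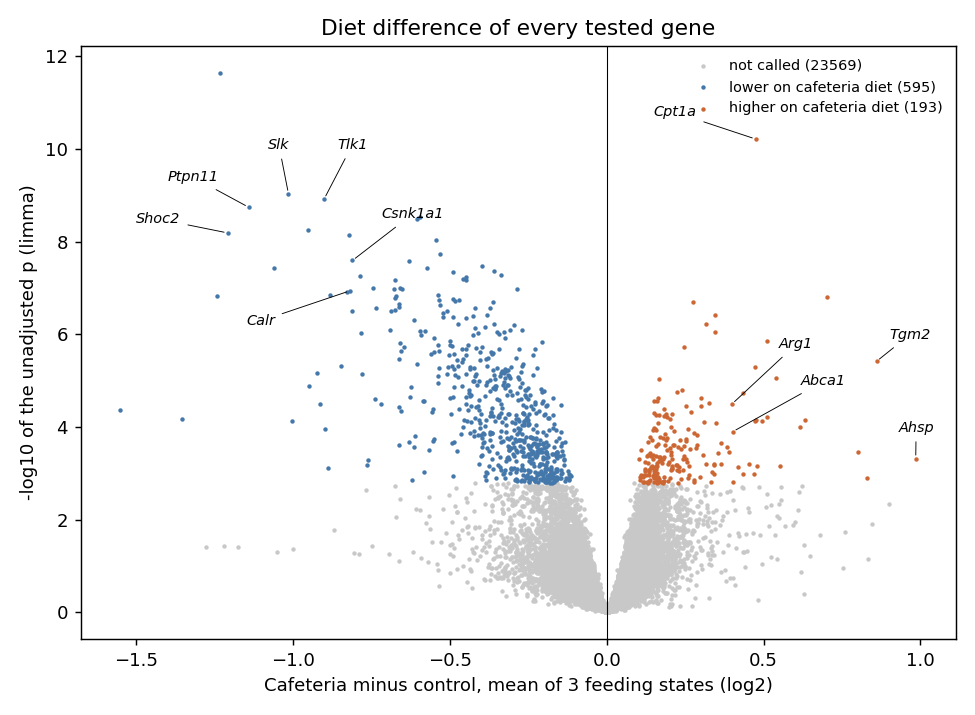
Each point is 1 of 24357 genes, with the diet difference averaged over the 3 feeding states (log2) on the x axis and the negative log10 of limma's unadjusted p on the y axis. The 595 falls in blue reach further from 0 than the 193 rises in orange, and Cpt1a stands highest among the rises.

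Cpt1a separated the diets completely. In control rats its log2 ratio was -0.35, -0.544, -0.236 and -0.517 when fed, between -0.183 and -0.0247 when fasted, and between -0.681 and -0.333 when refed. In cafeteria rats it was 0.00238, 0.00707, 0.106, 0.215 and 0.268 when fed, 0.0618 to 0.27 when fasted and 0.00612 to 0.339 when refed. Every cafeteria array thus lay above every control array, and the control rats came closest to the cafeteria rats after the fast. Cpt1a rose by 0.48 ± 0.045 (adjusted p = 7.48e-07), a 1.39-fold rise. The difference was 0.53 in fed, 0.25 in fasted and 0.65 in refed rats. In limma's contrasts within a state it was called in fed (adjusted p = 0.0139) and refed rats (adjusted p = 0.000144). In fasted rats it was not called (adjusted p = 0.117). Whether the difference varied between states was tested over all genes. For Cpt1a limma's interaction test gave an unadjusted p = 0.00343 and an adjusted p = 0.999. The probe lies at chr1:205912066-205912125 on the rn4 build, and the call held under all 20 alternative settings that left no array out, in which the difference was at least 0.46, and without any 1 array.

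Complete separation of the 15 cafeteria from the 14 control arrays was seen for 5 of the 24357 genes (0.0205%), of which 1 rose and 4 fell. Among the falls with a symbol was Csnk1a1, casein kinase 1 alpha, which phosphorylates beta-catenin in the Wnt pathway. Its log2 ratio ran from 0.00958 to 0.418 in control rats, with a median of 0.24. In cafeteria rats it ran from -1.29 to 0.00193, with a median of -0.60. One cafeteria value in each state lay near 0 (-0.034, 0.00193 and -0.122 in fed 1, fasted 2 and refed 3) and all others at -0.344 or lower. These arrays were also the highest of their groups for the falls of Slk, Klf7 and Ppil4. Cafeteria fasted 14 and refed 15 were the lowest of their groups for the same genes and Csnk1a1. Several falls thus moved together by array and are not separate observations. Calr and Tlk1 did not follow this in every state, with Tlk1 at -0.649 in refed 3 and -0.487 in refed 9. Csnk1a1 fell by 0.81 ± 0.10 (adjusted p = 4.59e-05). A second probe of the gene fell by 0.59 ± 0.075 (adjusted p over all probes = 2.76e-05).

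**Figure D2:**
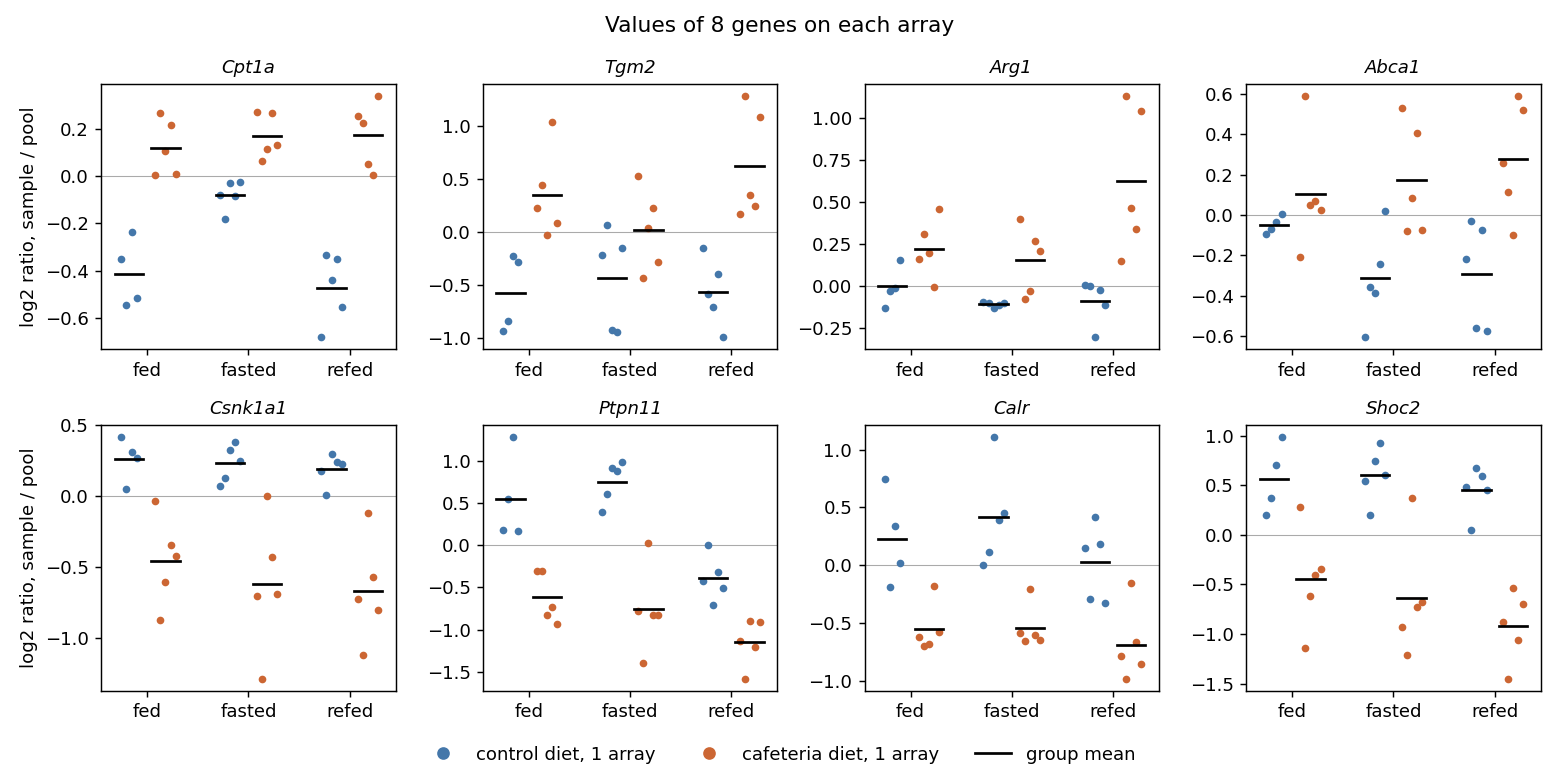
Each point is 1 array, with the feeding state on the x axis and the log2 ratio of the sample to the pool on the y axis, control diet in blue and cafeteria diet in orange, and a black bar at each group's mean. Over all 29 arrays Cpt1a and Csnk1a1 show no overlap between the diets, while the other 6 genes differ in their group means with some overlap of single arrays.

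Genes of fatty acid oxidation and PPAR targets held 2 rises, Cpt1a and Angptl4, and no fall among 36 measured, against a background of 0.792% rises over all genes. The median difference of the 36 was 0.077, beside 0.00869 over all genes, and 28 of them were above 0 (77.8%, against 55.4% of all genes). Angptl4 encodes a secreted inhibitor of lipoprotein lipase. Its log2 ratio ran from -0.37 to 0.00413 in control rats (median -0.12) and from -0.20 to 0.42 in cafeteria rats (median 0.18), and 12 cafeteria arrays lay above every control array. It rose by 0.30 ± 0.059 (adjusted p = 0.00269). The receptor genes themselves were not called: Ppara had a difference of -0.023 ± 0.019 (adjusted p = 0.631) and was above background on 4 control and 8 cafeteria arrays, and Pparg had 0.15 ± 0.070 (adjusted p = 0.312).

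Of 13 genes of sterol efflux and LXR targets 2 rose (15.4%, against 0.792% rises over all genes) and none fell. The median was 0.033, and 11 members were above 0. Abca1 ran from -0.61 to 0.021 in control rats (median -0.15) and from -0.21 to 0.59 in cafeteria rats (median 0.085). Cafeteria values lay above every control value on 11 of 15 arrays. Abca1 rose by 0.40 ± 0.089 (adjusted p = 0.00852), with 0.15 in fed, 0.49 in fasted and 0.57 in refed rats. Nr1h3, which encodes LXR alpha, rose by 0.33 ± 0.094 (adjusted p = 0.0482), and that call was lost when any 1 of 21 arrays was left out (adjusted p up to 0.0869).

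Sterol synthesis and uptake held 2 falls and no rise among 28 genes, against 2.44% falls over all genes, and its median was -0.00152. Lss, lanosterol synthase, fell by 0.33 ± 0.059 (adjusted p = 0.00105). It ran from -0.11 to 0.47 in control and from -0.47 to 0.26 in cafeteria rats, with 11 cafeteria arrays below every control array. Srebf2, the transcription factor that switches on sterol synthesis, fell by 0.24 ± 0.062 (adjusted p = 0.0253). Its difference was -0.35 in fed, 0.0019 in fasted and -0.38 in refed rats, so no fall was seen in fasted rats. Its other probe had 0.14 ± 0.094, the opposite sign, and without control fed 1 the call of Srebf2 was lost (adjusted p = 0.0611).

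No gene of fatty acid and triglyceride synthesis was called among 25 measured, and their median was 0.000919. Fasn, fatty acid synthase, had a difference of -0.00764 ± 0.045 (adjusted p = 0.960), with a 95% interval of -0.10 to 0.085. Srebf1, the regulator of fatty acid synthesis, had -0.013 ± 0.064 (adjusted p = 0.954), with an interval of -0.14 to 0.12. Scd, stearoyl-CoA desaturase, had 0.18 ± 0.085 (adjusted p = 0.309).

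Among 14 genes of fatty acid uptake and binding none was called. Slc27a2, a fatty acid transporter and acyl-CoA synthetase, was the most variable of the named genes, with values from -4.85 to 1.61 in control and from -4.86 to 1.38 in cafeteria rats. In both diets the values lay either at -3.99 or lower or at -0.612 or higher, but for cafeteria refed 15 at -2.04. The difference of Slc27a2 was 4.20 ± 1.41 in fed (adjusted p = 0.816), -0.83 ± 1.33 in fasted and -1.92 ± 1.33 in refed rats. It was 0.48 ± 0.79 on average (adjusted p = 0.83). Leaving out 1 array moved that average to between 0.15 (without control fasted 5) and 0.84 (without control fed 1), and it was 4.13 with the spread of the arrays set equal, so its size is not settled. None of 23 genes of glycolysis and glucose transport was called. Outside that list, Slc2a6, a member of the glucose transporter family, rose by 0.42 ± 0.11 (adjusted p = 0.0293), and its call was lost without any 1 of 8 arrays (adjusted p up to 0.0561). Txnip had 0.13 ± 0.10 (adjusted p = 0.589) and Ucp2, a mitochondrial carrier, 0.092 ± 0.057 (adjusted p = 0.479).

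In insulin and leptin signalling 2 of 25 genes fell, among them Ptpn11, and none rose (8.0% of the list, against 2.44% falls over all genes). Ptpn11 encodes SHP-2, a phosphatase that relays signals from growth factor and cytokine receptors. Its log2 ratio ran from -0.71 to 1.28 in control rats (median 0.28) and from -1.57 to 0.022 in cafeteria rats (median -0.83). In refed rats no array of either diet was above 0.00366, yet the diets did not overlap within any state. It fell by 1.14 ± 0.13 (adjusted p = 8.86e-06), a 2.21-fold fall, and its second probe fell by 1.01 ± 0.12. The receptor genes were near 0, with 0.010 ± 0.023 for Lepr (adjusted p = 0.879) and -0.045 ± 0.039 for Insr (adjusted p = 0.639). Lepr was above background on 4 control and 5 cafeteria arrays, so its level was barely measured.

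The largest fall with a symbol was that of Shoc2, a scaffold that promotes signalling from Ras to Raf kinases. It ran from 0.049 to 0.99 in control rats (median 0.57) and from -1.45 to 0.37 in cafeteria rats (median -0.70), and 13 of 15 cafeteria arrays lay below every control array. Shoc2 fell by 1.21 ± 0.14 (adjusted p = 1.76e-05), or 2.31-fold. Kinases were among the next largest falls. Slk, a Ste20-like kinase of the cytoskeleton, fell by 1.01 ± 0.11 (adjusted p = 7.39e-06). Tlk1, a kinase of chromatin assembly, fell by 0.90 ± 0.099 (adjusted p = 7.39e-06), while its other probe had -0.12 ± 0.048 (adjusted p over all probes = 0.202).

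The rest of the 15 largest falls had varied roles. Wac, an adaptor for histone H2B ubiquitination, fell by 0.95 ± 0.11 (adjusted p = 1.71e-05), Jade2, a scaffold of a histone acetyltransferase complex, by 0.88 ± 0.12 (adjusted p = 0.000102) and the transcription factor Klf7 by 0.92 ± 0.17 (adjusted p = 0.00115). Ddx6, an RNA helicase of mRNA decay, fell by 0.81 ± 0.12 (adjusted p = 0.000145). Ppil4, a nuclear cyclophilin, fell by 0.83 ± 0.12 (adjusted p = 9.36e-05), and the helicase gene Ascc3 by 0.78 ± 0.14 (adjusted p = 0.00118). B3gnt7, a glycosyltransferase, fell by 0.91 ± 0.18 (adjusted p = 0.00323) and Sv2b, a vesicle glycoprotein, by 0.90 ± 0.20 (adjusted p = 0.00779). Of the 15 largest falls, Csnk1a1 alone was still called when the spread of the arrays was set equal, and Klf7, B3gnt7, Sv2b, Ckap4, Csnk1a1 and Ascc3 were not called when arrays were centred on their medians.

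Where a fallen gene had a second tested probe, that probe often showed less. Of 191 other probes of called falls, 139 had the same sign (72.8%) and 43 were called themselves in the fit over all probes (22.5%). The median of the 191 was -0.058, against -0.35 for the brightest probes of the same genes. Other probes of genes that were not called shared the sign in 65.1% and were called in 5.83%. Second probes of Ptpn11, Csnk1a1 and Klf7 (-0.71) lay near the first. For Ddx6, 1 probe fell by 0.47 and another had -0.038. For Wac (-0.078), Sv2b (0.047) and Ascc3 (0.021 and 0.027) they lay near 0. Probes of 1 gene can lie on different transcripts of it, and the build of the probe positions was not annotated here. The called rises had 38 other probes, of which 30 shared the sign. Their median was 0.057, against 0.17 for the brightest probes, and of the 7 that were called (18.4%) 4 had the opposite sign.

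**Figure D3:**
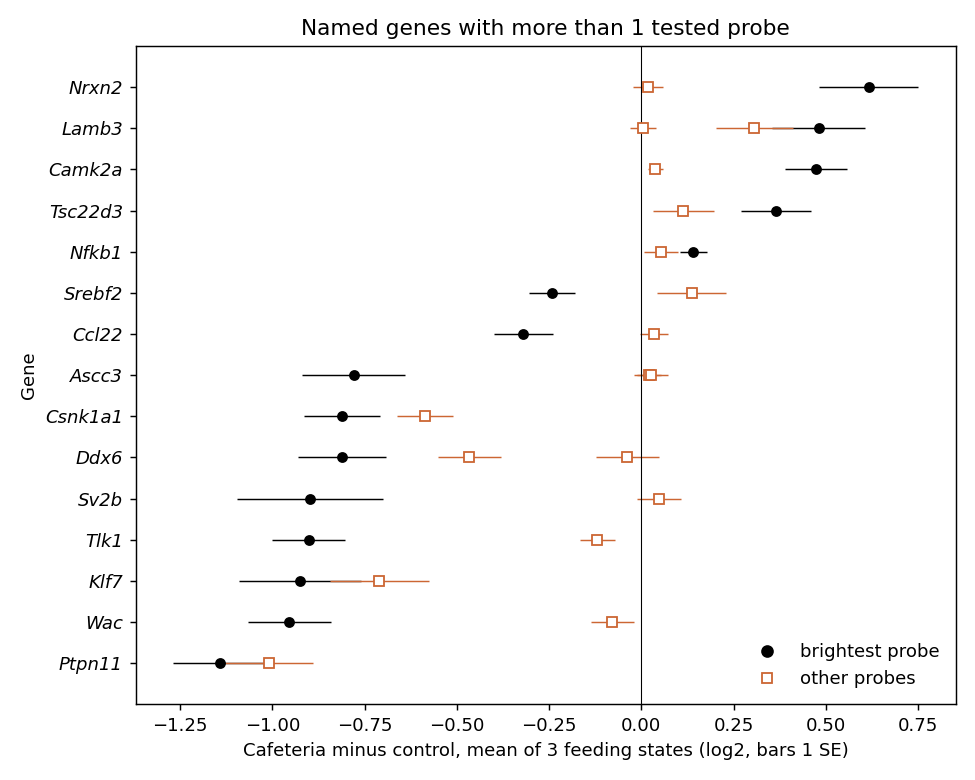
For each called and named gene with more than 1 tested probe, the x axis gives the diet difference (log2, bars 1 SE), with the brightest probe as a filled circle and other probes as open squares. Squares lie near circles for Ptpn11, Klf7 and Csnk1a1, and near 0 for Wac, Sv2b, Ascc3, Camk2a and Nrxn2.

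The genes that fell also differed in span. Among falls with a RefSeq match, the gene covered a median of 44.9 kb of the GRCr8 assembly (quartiles 22.4 and 99.3 kb), against 18.7 kb for matched rises and 21 kb for all 11304 matched genes. Only 52.6% of the falls and 53.4% of the rises had such a match. As a check of all called genes this is therefore void, and it describes the matched ones only. Called genes of both directions were measured well: 96.6% of the falls and 89.6% of the rises were above background on all 29 arrays, against 73.1% of all genes tested.

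ER chaperones and genes of the unfolded protein response, which fold secreted proteins and answer to misfolded ones, held 2 falls and no rise among 23 (8.70%, against 2.44% falls over all genes). Their median was -0.11, and 3 members were above 0 (13.0%, against 55.4% of all genes). Calr, calreticulin, ran from -0.33 to 1.11 in control rats (median 0.17) and from -0.98 to -0.16 in cafeteria rats (median -0.65). In each state 1 cafeteria array lay between -0.206 and -0.157 and the others at -0.583 or lower. Calr fell by 0.82 ± 0.11 (adjusted p = 9.07e-05). Atf6, a sensor of misfolded proteins in the ER, fell by 0.41 ± 0.083 (adjusted p = 0.00399). Ckap4, an ER membrane protein outside this list, fell by 0.89 ± 0.23 (adjusted p = 0.0303), and its call was lost without any 1 of 4 arrays (adjusted p up to 0.0732). It ran from -0.77 to 2.61 in control rats, where control fasted 2 had 2.61 and the next highest 0.903, and from -1.74 to 0.055 in cafeteria rats. The difference was -0.59 in fed, -1.44 in fasted and -0.63 in refed rats, and leaving out 1 array moved the average to between -0.99 and -0.71.

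No marker of plasma cells, whose work is secretion, was called, while all 7 measured were below 0, with a median of -0.32. Their mean ran from -0.66 to 2.03 in control arrays and from -0.82 to 0.45 in cafeteria arrays, so the diets overlapped. Their part in the falls of Calr, Atf6 and Ckap4 was not tested.

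In the list of macrophage alternative activation, a wound-healing programme of macrophages, 2 genes rose and 1 fell among 12. These are 16.7% and 8.33% of the list, against 0.792% rises and 2.44% falls over all genes. The median was 0.074, 8 members were above 0, and the lowest was Clec10a at -0.37. Tgm2, a transglutaminase that crosslinks proteins, ran from -0.997 to 0.065 in control rats (median -0.49) and from -0.43 to 1.29 in cafeteria rats (median 0.23). It rose by 0.86 ± 0.15 (adjusted p = 0.00078), a 1.82-fold rise, with 11 cafeteria arrays above every control array. Arg1, the arginase of the urea cycle, ran from -0.31 to 0.15 in control rats and from -0.079 to 1.13 in cafeteria rats. It rose by 0.40 ± 0.080 (adjusted p = 0.00328). The difference was 0.71 in refed and 0.23 in fed rats, and 2 refed cafeteria rats had the highest values (1.13 and 1.04). The chemokine gene Ccl22 fell by 0.32 ± 0.080 (adjusted p = 0.0209), but its other probe had 0.033 ± 0.038, the opposite sign. Tgfa, transforming growth factor alpha, was named because of earlier results and missed the threshold with 0.32 ± 0.092 (adjusted p = 0.0559). It lay close enough to the threshold that other settings called it, with an adjusted p of 0.0372 for Cy5 alone and 0.0434 in the authors' table. Its difference was -0.11 in fed, 0.73 in fasted (adjusted p = 0.0234) and 0.32 in refed rats.

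Of 25 oxidative stress and antioxidant genes 3 rose (12%, against 0.792% rises over all genes) and none fell, while the median of the list was 0.024. Pon3, a lactonase carried on HDL, rose by 0.50 ± 0.11 (adjusted p = 0.00577), from a control median of -0.21 to a cafeteria median of 0.35. Hmox1, which degrades haem, rose by 0.29 ± 0.065 (adjusted p = 0.00947), and Cat, catalase, by 0.23 ± 0.054 (adjusted p = 0.0145). Neither was called with Cy5 alone or with arrays centred on their medians. Hmox1 and Cat overlapped between the diets, with 5 and 2 cafeteria arrays above every control array.

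Few inflammatory genes were called. Of 28 cytokines, chemokines and receptors 1 rose (3.57%, against 0.792% rises over all genes). This was Nfkb1, a subunit of NF-kappaB, by 0.14 ± 0.037 (adjusted p = 0.0308), and that call was lost without any 1 of 8 arrays (adjusted p up to 0.0729). The 28 differences ran from -0.48 (Ccl2) to 0.30 (Il1rn), and the authors' table gave 3 rises among 24. Their median was -0.024 in fed, 0.17 in fasted and 0.012 in refed rats. Tlr6, a receptor for microbial lipopeptides, rose by 0.25 ± 0.061 (adjusted p = 0.0198), as the 1 call among 15 Toll-like receptors and adaptors (6.67%, against 0.792% rises over all genes). Gbp5, an interferon-induced GTPase, fell by 0.26 ± 0.050 (adjusted p = 0.00200), as the 1 call among 28 interferon-stimulated genes (3.57%, against 2.44% falls over all genes). These interferon-stimulated genes ran from -0.26 (Gbp5) to 0.68 (Rsad2), with a median of -0.088 in fed, 0.19 in fasted and -0.12 in refed rats. Glucocorticoid response genes had 20 of 22 members above 0 and a median of 0.14. They held 1 rise (4.55%, against 0.792% rises over all genes), Tsc22d3, by 0.37 ± 0.094 (adjusted p = 0.0270). Its call was lost without control fed 4 or without cafeteria refed 9 (adjusted p up to 0.0510), and its other probe had 0.11 ± 0.083. The median of the glucocorticoid list was 0.011 in fed, 0.34 in fasted and 0.17 in refed rats.

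Of the clock genes 1 of 19 rose (5.26%, against 0.792% rises over all genes), Cry1, a repressor of the clock. It rose by 0.16 ± 0.041 (adjusted p = 0.0251), and without control fed 4 it was not called (adjusted p = 0.0511). Of 35 genes of cell cycle and DNA replication 1 fell, Ccnd2, cyclin D2, by 0.49 ± 0.12 (adjusted p = 0.0127). That is 2.86% of the list, near the 2.44% of falls over all genes. Immediate early genes (27 measured), genes of MHC and antigen presentation (22), ribosomal proteins (64), respiratory chain subunits (61) and proteasome subunits (35) held no call. Their medians lay between -0.000659 and 0.079.

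**Figure D4:**
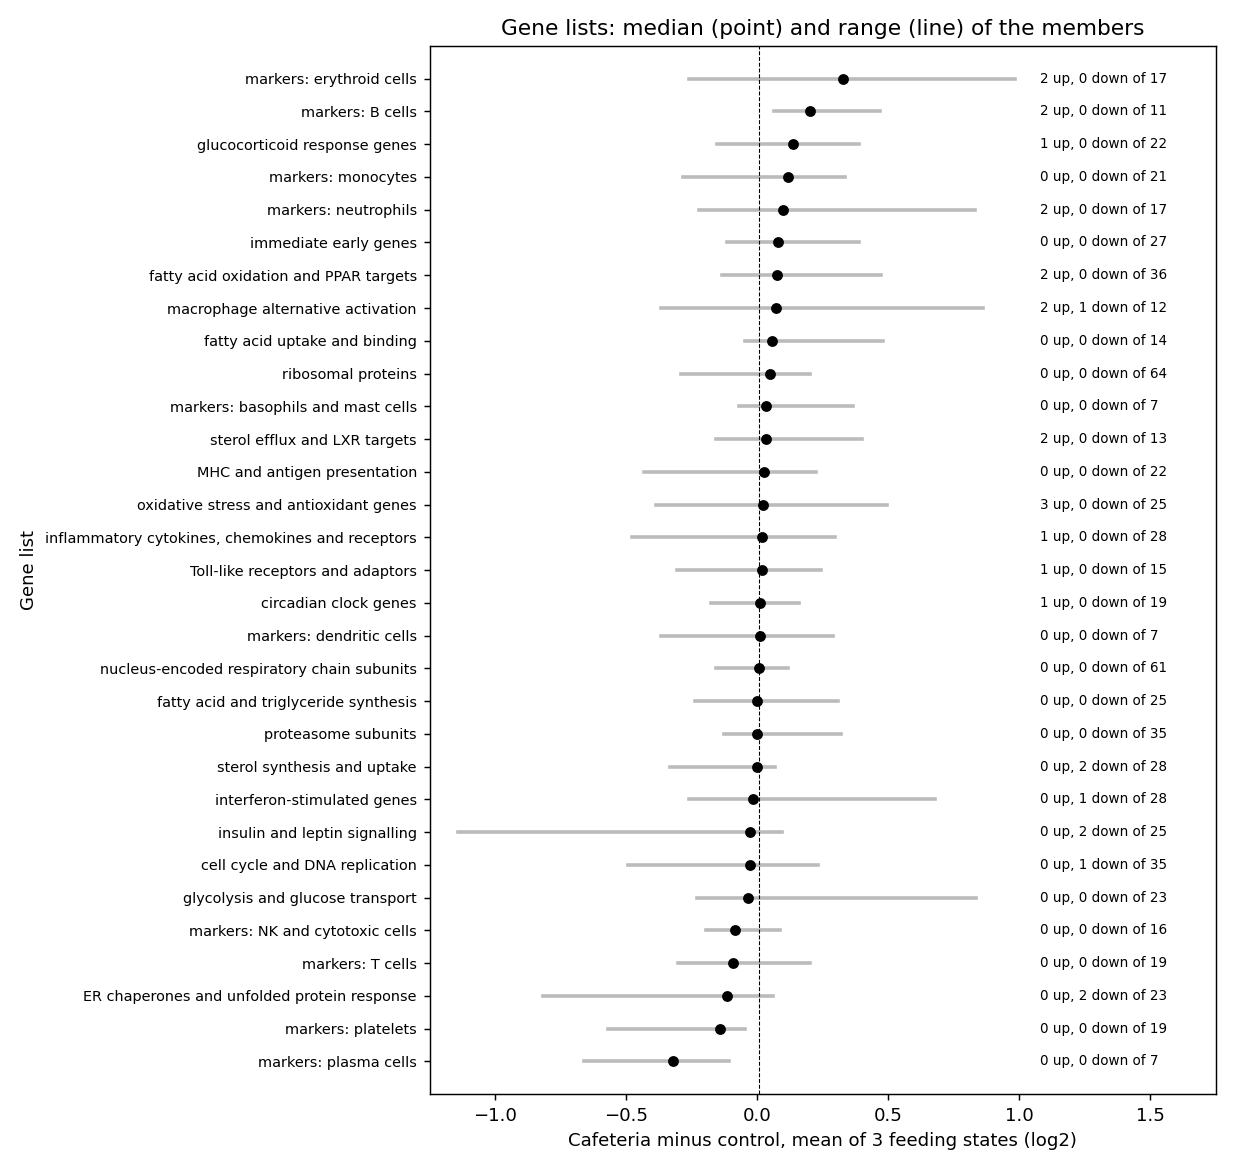
For each gene list the point is the median and the line the range of its members' diet differences (log2, x axis), the dashed line is the median of all genes, and the text counts called members. B cell markers lie above 0 throughout, platelet and plasma cell markers below 0 throughout, and most other lists are centred near 0.

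Among markers of cell types, those of B cells were all above 0. The 11 measured had a median difference of 0.20, and 2 rose (18.2%, against 0.792% rises over all genes). These were Cd72, by 0.47 ± 0.13 (adjusted p = 0.0378), and Cd37, by 0.16 ± 0.041 (adjusted p = 0.0319), both B cell surface proteins. The mean of the 11 markers ran from -0.29 to 0.19 in control and from -0.22 to 0.36 in cafeteria arrays, so the diets overlapped. The calls of Cd72 and Cd37 were lost without any 1 of 17 and 10 arrays (adjusted p up to 0.079 and 0.062). The median of NK markers was 0.32 in fed and -0.47 in refed rats, of opposite sign. No marker of T cells (median -0.091), NK and cytotoxic cells (-0.083), monocytes (0.12), dendritic cells (0.010) or basophils and mast cells (0.034) was called. The medians of T and NK cell markers turned positive, to at most 0.073, when arrays were centred on their medians and in the authors' table, and that of T cells also when the spread of arrays was set equal. That of dendritic cells turned negative with the scanner's processed signals (-0.092) and in the authors' table (-0.018).

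The largest rise belonged to Ahsp, the chaperone of alpha haemoglobin in red cell precursors. It ran from -1.81 to 0.66 in control rats (median -0.97) and from -0.64 to 1.68 in cafeteria rats (median 0.010), and it rose by 0.99 ± 0.25 (adjusted p = 0.0217). Only 3 cafeteria arrays lay above every control array, but all 15 lay above the control median. Of 17 erythroid markers 13 were above 0, with a median of 0.33. The erythroid marker mean ran from -0.92 to 0.48 in control and from -0.50 to 0.58 in cafeteria arrays.

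Of 17 neutrophil markers 2 rose (11.8%, against 0.792% rises over all genes), the granule genes Camp and Defa5, and none fell. Camp, the antimicrobial cathelicidin, ran from -1.06 to 0.22 in control rats and from -0.75 to 2.03 in cafeteria rats, and rose by 0.80 ± 0.19 (adjusted p = 0.0171). Defa5, a defensin, rose by 0.83 ± 0.23 (adjusted p = 0.0433), but it was above background on 4 of 14 control and 14 of 15 cafeteria arrays, so the size of its rise is uncertain. Its call was lost without the filter on dim probes (all probes tested) and without any 1 of 18 arrays (adjusted p up to 0.0973). The median of the 17 neutrophil markers was 0.10, with 13 above 0 and Mmp9 lowest at -0.22. That median was -0.071 in fed, 0.19 in fasted and 0.21 in refed rats. The neutrophil marker mean ran from -0.53 to 0.045 in control and from -0.44 to 0.76 in cafeteria arrays.

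All 19 platelet markers were below 0, with a median of -0.14, and none was called. Their median was -0.29 in fed, -0.56 in fasted and 0.29 in refed rats. The platelet marker mean ran from -1.31 to 0.89 in control and from -1.46 to 0.38 in cafeteria arrays. With this mean as a covariate 1132 genes were called, among them 767 of the 788. With the neutrophil or the erythroid marker mean as a covariate, both chosen after seeing the data and the first holding Camp and Defa5, the second Ahsp, 584 and 603 were called, among them 516 and 474 of the 788. Cpt1a, Tgm2, Shoc2, Ptpn11, Csnk1a1 and Calr remained called with each of these 3 covariates. Abca1, Camp, Hmox1, Tsc22d3, Cry1 and Rec114 were no longer called with the erythroid mean, nor Ahsp with the neutrophil mean. Tlr6, Ccnd2, Ccl22, Cd72, Cd37, Nfkb1, Heph, Lamb3, Slc2a6, Ckap4, Nr1h3 and Defa5 were called with neither of these means.

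The remaining large rises had varied roles. Qrfpr, a neuropeptide receptor, rose by 0.63 ± 0.13 (adjusted p = 0.00552). Nrxn2, a synaptic adhesion protein, rose by 0.62 ± 0.13 (adjusted p = 0.00725), but its other probe had 0.017 ± 0.040. Camk2a, a calcium-dependent kinase, rose by 0.47 ± 0.083 (adjusted p = 0.000957), with 13 cafeteria arrays above every control array and 0.038 ± 0.021 on its other probe. Dnajc22, a member of the DnaJ family, rose by 0.44 ± 0.084 (adjusted p = 0.00224), and its values overlapped between the diets except on 4 cafeteria arrays. Rec114, a meiotic recombination protein, rose by 0.55 ± 0.14 (adjusted p = 0.0285), Lamb3, a laminin chain, by 0.48 ± 0.13 (adjusted p = 0.0285), and Heph, a copper-dependent ferroxidase, by 0.43 ± 0.12 (adjusted p = 0.0372). The calls of Rec114, Lamb3 and Heph were lost without any 1 of 8, 4 and 15 arrays (adjusted p up to 0.0597, 0.0665 and 0.0768). Other probes of Lamb3 had 0.0036 ± 0.035 and 0.306 ± 0.105, and Lamb3 was not called with the mean of all its probes. Of the 15 largest rises, Camp, Qrfpr, Pon3, Cpt1a and Camk2a were still called when the spread of the arrays was set equal. Tgm2, Qrfpr, Nrxn2, Cpt1a and Camk2a were still called when arrays were centred on their medians.

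Taken state by state, the same fit called far fewer genes. It called 1 gene in fed (0.00411%), 208 in fasted (0.854%) and 54 in refed rats (0.222%). Cpt1a was the 1 gene in fed rats. Of the 208, 26 rose and 182 fell, and of the 54, 10 rose and 44 fell. The excess in fasted over refed rats depended on the values: there were 13 and 125 with the processed signals, 13 and 114 with Cy5 alone, and 9 and 294 in the authors' table. It also hung on single arrays. Without control fasted 2, 5 or 8 there were 95, 58 and 64 calls in fasted rats, without cafeteria fasted 2, 5, 8, 11 or 14 there were 369, 69, 76, 65 and 73. In refed rats there were 4, 10, 35 and 29 without control refed 3, 6, 9 or 12, 143, 20 and 4 without cafeteria refed 3, 9 or 15, 84 without cafeteria fed 10 and 87 without cafeteria fasted 2. In fed rats the count lay between 0 and 4. Over the mean of the states, the rises numbered 127 without control refed 3.

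Each state has its own rats, so the states can be set against each other. Of the 208 genes called in fasted rats, 90.9% had the same sign in fed and 81.7% in refed rats, where all genes had 62.7% and 55.4%. Of the 54 called in refed rats, 96.3% had the same sign in fed and 98.1% in fasted rats, where all genes had 54.8% and 55.4%. Both lists shared 18 genes, 8.65% of the fasted and 33.3% of the refed list. Of the genes called over the mean of the states, 188 of 193 rises and 591 of 595 falls had 1 sign in all 3 states, which the averaging favours.

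**Figure D5:**
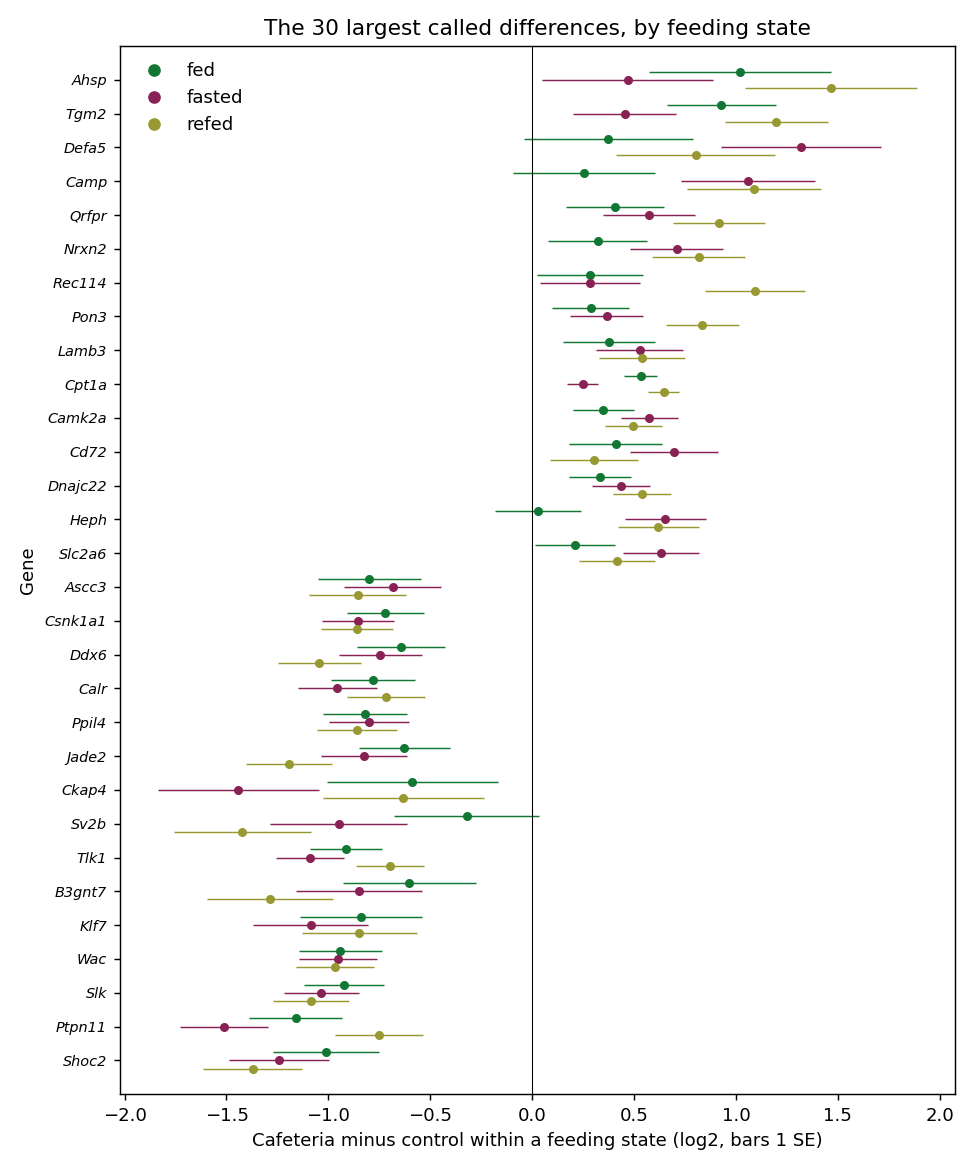
For the called genes with a symbol, the 15 that rose most and the 15 that fell most, the x axis gives the diet difference within each feeding state (log2, bars 1 SE), in green for fed, purple for fasted and olive for refed rats. All points lie on the side of the gene's average, and the spread between states is widest for Ckap4, Sv2b, Ahsp and Defa5.

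No gene passed the test of whether the diet difference varied between the 3 states (limma's moderated F over 2 contrasts, smallest adjusted p = 0.454), while 1086 genes had an unadjusted p under 0.05 (4.46%). The smallest p among genes with a symbol belonged to Mast4, a kinase, with differences of -0.13 in fed, -0.38 in fasted and 0.13 in refed rats (adjusted p = 0.902). Dusp15, a phosphatase, had 0.017, -0.25 and 0.025 in the same order (adjusted p = 0.902), and Tk2, the mitochondrial thymidine kinase, 0.29, 0.27 and -0.43 (adjusted p = 0.999). With 4 or 5 rats per group, differences between states of the size seen for Arg1 (0.23, 0.26 and 0.71, adjusted p = 0.999) did not pass.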

How the data were processed

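RNA of 29 rats was measured on 29 arrays of 2 colours. The deposited scanner output lists, for every spot and both colours, a mean intensity and a median local background intensity, and also intensity values processed by the scanner software (Feature Extraction 9.5.1.1, per the file headers, which place probes on rn4). Per the labels, Cy5 carried the sample and Cy3 a pool of samples on every array, with no dye swap. The authors' deposited value table is normalized Cy5 by its label and proved to be on a log2 scale (slope 0.985 to 1.02 against log2 of the scanner's Cy5, column medians 9.37 to 9.76). Its normalization is not given in the sources used here.

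In R 4.3.3 with limma 3.58.1 (and version 1.17.8 of data.table), normexp (offset 50) corrected the background and loess the log2 ratios of each array, control and outlier spots having weight 0. Outlier values (342) were dropped and spots of a probe averaged. A Cy5 signal flagged well above background on 4 or more of the 29 arrays was required, which 28242 of 41012 probes met, and the brightest probe stood for each of 24357 genes. RefSeq names (GRCr8) matched 19532 probes and 11304 tested genes; 171 names were set aside because probe and gene lie on different chromosomes.

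The 6 groups entered 1 fit (lmFit, eBayes) without covariates, and 2-sided p-values were adjusted by Benjamini-Hochberg per comparison. Named genes are the 15 top rises and 15 top falls that were called and have a symbol, up to 4 called members of each of 32 lists, genes known from earlier results, a fixed metabolic set and the 3 symbols with the smallest interaction p; some are not reported here. Comparison, lists and genes were chosen with earlier results of these data known. Alternatives were other background, normalization, filter, probe, model and block settings and leaving out each array. Scanning took 1 day. The 8 slides were extracted in 2 runs, of 14 arrays (8 control, 6 cafeteria; median Cy5 138 ± 7.1 units, SD) and 15 arrays (6 control, 9 cafeteria; 114 ± 7.69 units). Precision is limited by how few arrays each group holds.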

Additional observations from a re-analysis of the deposited data

Results flagged for a closer look

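In 16 of 366 sets of arrays (61 genes in 6 groups), 1 array stood apart from the rest of its group by Dixon's gap test at the 95% level. Chance flags about 1 group in 20, so this number is near what chance gives. The values are log2 ratios to the pool.

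Among the falls, Calr was -0.185 in cafeteria fed 4 (others -0.697 to -0.583) and -0.206 in cafeteria fasted 2 (others -0.654 to -0.59). Slk was 0.128 in cafeteria fed 1 (others at most -0.272), and Ddx6 was -1.33 in cafeteria refed 15 (others at least -0.602). Ccl22 was 0.649 in control fed 1, against at most 0.0838 in the others of that group.

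Among the rises, Defa5 was -0.407 and Cd72 0.166 in control fasted 14 (others at most -0.944 and -0.527), so both of these genes were highest on the same array there. Nrxn2 was -0.318 in control fed 7, the lowest of its group. Hmox1 was -0.225 in cafeteria refed 12 (others at least 0.231), Nr1h3 was 0.26 in control refed 12 (others at most -0.151), and Tsc22d3 was -1.07 in control fed 4 (others at least -0.319).

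Among genes that were not called, Tgfa was 0.808 in control fed 7 and Slc27a2 was -0.316 in control fed 1, where the other fed controls lay between -4.85 and -4.14. Ppara was 0.0549 in cafeteria refed 3, Ucp2 0.104 in control refed 12 and Insr 0.224 in control fasted 5.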

How the results depend on the processing

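The 788 calls over the mean of the feeding states were within 1.5 times of that number under all settings but 4: 54 with arrays centred on their medians, 235 with the spread of the arrays set equal, and 8 and 3 in extraction run 1 and run 2 alone, which hold 14 and 15 arrays. Other settings gave 584 (neutrophil covariate) to 1132 (platelet covariate) calls, and 1105 with every probe tested. With array weights 344 rose and 607 fell. Of the 788 genes, at least 783 kept their direction under each setting that tested them all. So did all 755 that had values in the authors' table and all 748 that were above background on all arrays, and no named gene that was called reversed. Leaving out 1 array gave 626 to 898 calls, of which at least 600 were among the 788. In fed, fasted and refed rats (1, 208 and 54 calls) the processed signals gave 3, 13 and 125, median centring 0, 24 and 0, equal spread 0, 0 and 0, Cy5 alone 1, 13 and 114, and in the authors' table there were 1, 9 and 294. Slide as a random block gave 2 calls in fed rats. Leaving out 1 array gave 0 to 4, 58 to 369 and 4 to 143. The causes of these shifts were not tested. The interaction had 0 calls in limma under each setting in which it was fitted, with 1086 genes at an unadjusted p under 0.05 in the main one.

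With the rat number within a state as a replicate block, 636 genes were called over the mean of the states, 560 of them among the 788, and 0, 285 and 140 in fed, fasted and refed rats. The values showed no pairing by number, though they cannot tell whether rats were paired by design. Deviations of same-numbered rats had correlations of -0.151 to 0.207, with 2 of 14 over 0.1. Of the 14 cafeteria rats with a control rat of their number, 3 correlated best with it.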
